A study of Homo sapiens with 16 samples.

Results

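BMAL1 binding that recurred in U2OS cells and was never called in the U2OS-CHRONO line was followed here through 508 regions, 2.42% of the 20968 regions formed by merging overlapping BMAL1 peaks of both lines. The regions were chosen by their BMAL1 peaks alone. A region was kept when it had a peak at 2 or more of the 6 U2OS times and at none of the 6 U2OS-CHRONO times. The study mapped BMAL1 by chromatin immunoprecipitation and sequencing in 2 human osteosarcoma lines. In U2OS-CHRONO, labelled U2OS-CHR, there were 6 BMAL1 libraries, and in U2OS, labelled U2OS_WT, there were 6. Both lines had received 200 nM dexamethasone, a glucocorticoid that brings the clocks of cultured cells into phase. Collection began 4 h ahead of the trough of a BMAL1-promoter luciferase rhythm and went on every 4 h, at times called 0, 4, 8, 12, 16 and 20 h. A Myc library of U2OS-CHRONO, with no time or treatment label, made up the list of 13 libraries with peaks. The series design gives the target of that library as Myc-CHRONO. The labels do not say how U2OS-CHRONO was made or whether it is a clone, and peak lists cannot check the labelled cell type. There was 1 library per line and time, so the times are not replicates, and the same regions recur from time to time.

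BMAL1 is a basic helix-loop-helix transcription factor that pairs with CLOCK and binds E-boxes, of which CACGTG is the best known. The pair activates the PER, CRY and REV-ERB genes, whose products turn it off again. CHRONO, encoded by CIART, is a further repressor that binds BMAL1. In bone-derived cells such as U2OS, a common model of the human clock, this loop runs in culture once the cells are set to a common phase.

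The promoters of 5 genes are shown because they carry the most recurrent of these regions at a transcription start, or a CACGTG under every peak of the region. They are RefSeq windows of build GRCh38.p14 from 250 bases before to 50 bases after the start, read on the strand of the gene, and capitals mark each CANNTG, the E-box core, whatever its middle bases.
SLC2A8, chr9:127396919-127397218, plus strand: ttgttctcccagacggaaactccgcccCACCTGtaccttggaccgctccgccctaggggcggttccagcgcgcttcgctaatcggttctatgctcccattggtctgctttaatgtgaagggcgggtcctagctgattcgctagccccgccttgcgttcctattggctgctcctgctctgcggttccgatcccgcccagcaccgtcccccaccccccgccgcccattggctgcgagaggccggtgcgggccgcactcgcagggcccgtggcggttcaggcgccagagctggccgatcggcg
ESR2, chr14:64338564-64338863, minus strand: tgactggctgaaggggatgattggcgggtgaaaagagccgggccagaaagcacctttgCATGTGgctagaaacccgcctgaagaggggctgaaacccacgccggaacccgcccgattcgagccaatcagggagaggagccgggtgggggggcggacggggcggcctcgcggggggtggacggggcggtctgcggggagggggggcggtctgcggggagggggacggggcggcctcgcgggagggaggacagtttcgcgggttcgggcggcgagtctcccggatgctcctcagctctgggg
METTL13, chr1:171781410-171781709, plus strand: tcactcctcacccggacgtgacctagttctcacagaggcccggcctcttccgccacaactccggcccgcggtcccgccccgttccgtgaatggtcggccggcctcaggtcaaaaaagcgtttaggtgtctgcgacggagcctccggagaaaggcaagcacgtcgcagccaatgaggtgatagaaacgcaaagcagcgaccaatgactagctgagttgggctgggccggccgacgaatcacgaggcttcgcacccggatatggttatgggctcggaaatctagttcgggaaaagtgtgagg
IRS4, chrX:108736328-108736627, minus strand: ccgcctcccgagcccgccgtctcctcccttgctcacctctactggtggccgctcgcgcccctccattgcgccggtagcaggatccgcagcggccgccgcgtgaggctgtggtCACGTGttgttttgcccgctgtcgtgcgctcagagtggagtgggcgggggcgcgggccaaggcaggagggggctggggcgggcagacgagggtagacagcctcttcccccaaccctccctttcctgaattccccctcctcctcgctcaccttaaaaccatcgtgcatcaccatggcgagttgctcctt
MXD4, chr4:2262060-2262359, minus strand: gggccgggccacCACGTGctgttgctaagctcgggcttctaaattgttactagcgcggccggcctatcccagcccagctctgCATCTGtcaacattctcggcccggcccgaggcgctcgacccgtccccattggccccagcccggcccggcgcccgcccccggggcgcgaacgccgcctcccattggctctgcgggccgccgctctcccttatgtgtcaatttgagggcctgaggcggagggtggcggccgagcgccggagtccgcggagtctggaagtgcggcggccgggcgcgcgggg
IRS4 and MXD4 hold a CACGTG, at 138 and 238 bases before the start. All 4 IRS4 peaks and all 3 MXD4 peaks span it. MXD4 has a second core, CATCTG, at 168 bases before the start, under 2 of its 3 peaks. SLC2A8 has CACCTG at 223 bases and ESR2 has CATGTG at 192 bases before the start, each under all 4 peaks of its region. METTL13 has no such core in this window.

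The U2OS-only regions were mostly sites of low recurrence and of low to middling score. Of the 508, 373 (73.4%) had a peak at 2 U2OS times, 85 (16.7%) at 3, 43 at 4, 5 at 5 and 2 at all 6. Each U2OS list gave a small share of its peaks to them: 228 peaks (6.71% of the list) at 0 h, 377 (7.13%) at 4 h, 4 (1.19%) at 8 h, 65 (3.60%) at 12 h, 150 (5.37%) at 16 h and 393 (6.54%) at 20 h. The regions were carried by the longest U2OS lists, those of 4 h and 20 h, with 5287 and 6012 peaks. A peak at 4 or 20 h was present in 498 regions (98.0%), and 268 (52.8%) had both. The commonest pattern was a peak at 4 and 20 h alone, in 155 regions (30.5%). A peak at 0 and 4 h alone marked 78 regions, at 16 and 20 h alone 50, and at 0 and 20 h alone 43. The 8 h list, the shortest with 337 peaks, touched 4 of the regions. With 4 h left out of both lines 318 regions passed the same rule, and with 20 h left out 287 did. The U2OS-CHRONO lists were longer at every time, with 2429 to 9391 peaks against 337 to 6012 in U2OS. The opposite rule, 2 or more U2OS-CHRONO times and no U2OS time, kept 2897 regions, 13.8% of all.

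**Figure D1:**
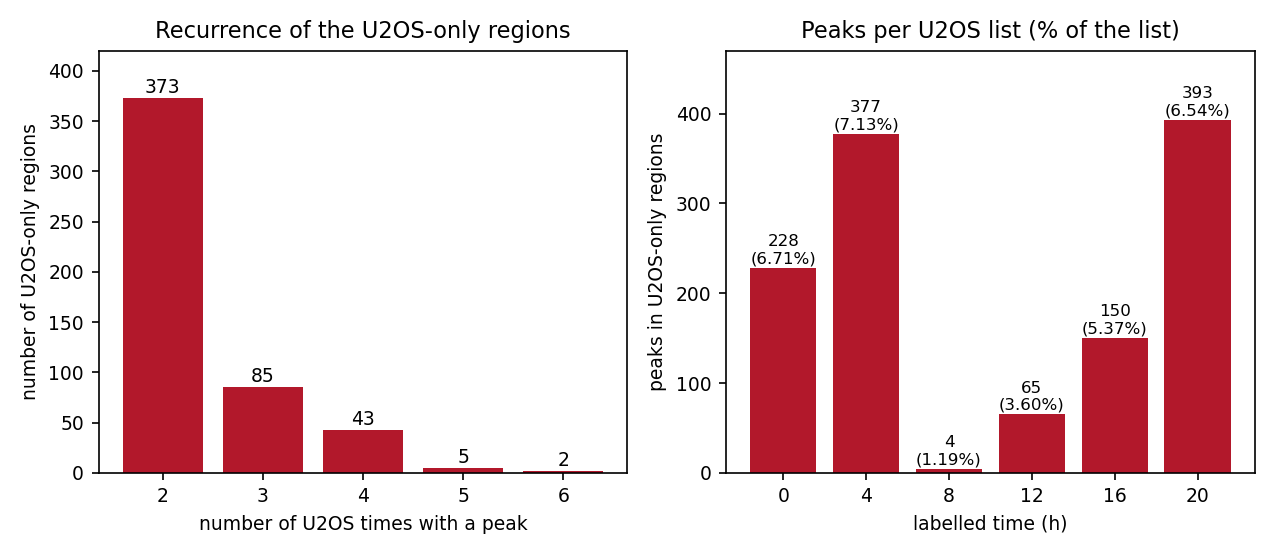
Left, number of U2OS-only regions (y) by the number of U2OS times with a BMAL1 peak (x). Right, number of BMAL1 peaks in these regions (y) in each U2OS list, with its share of the list, by labelled time in h (x). Most regions, 373 of 508, have a peak at 2 times, and the lists of 4 h and 20 h give the most peaks, 377 and 393.

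Scores and widths are described only, since the same peaks chose the regions. The score is the authors' own value per peak, and its percentile is the rank of a peak within its list, with 100 for the highest. The median peak of a U2OS-only region stood at percentile 36.9 to 50.3 of its list. The median peak of a recurrent U2OS region that also had a U2OS-CHRONO peak, of which there were 3387, stood at 63.2 to 71.4 of the same lists. The recurrent U2OS-CHRONO-only regions stood at 35.7 to 46.0 of the U2OS-CHRONO lists. The best ranks of U2OS-only peaks were 145 of 3397 at 0 h, 170 of 5287 at 4 h and 35 of 337 at 8 h. At 12, 16 and 20 h they were 227 of 1808, 277 of 2794 and 274 of 6012. Merged width had a median of 380.5 bp in U2OS-only regions, against 597 bp in shared recurrent regions and 434 bp in U2OS-CHRONO-only regions.

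Scores just inside the rule lay between those of the 2 kinds of region just outside it. The 373 regions with 2 U2OS times and no U2OS-CHRONO time had a median score of 62.5, at percentile 36.9. The 4421 regions with 1 U2OS time and no U2OS-CHRONO time had a median score of 55.5, at percentile 22.6. The 365 regions with 2 or more U2OS times and exactly 1 U2OS-CHRONO time had a median score of 68.0, at percentile 46.3. Those 365 include more recurrent regions, and the 234 of them with 2 U2OS times had a median score of 64.7, at percentile 40.1. Well inside the rule, the 50 regions with 4 or more U2OS times and no U2OS-CHRONO time had a median score of 82.2, at percentile 62.7.

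A U2OS-CHRONO peak often lay in the wider neighbourhood. The nearest one was 40 bp away at the closest, 26.7 kb at the median and 1076 kb at the farthest. It lay within 200 bp of 12 regions, within 1 kb of 45 (8.86%) and within 5 kb of 115 (22.6%), and more than 100 kb from 112. The U2OS-CHRONO-only regions had their nearest U2OS peak at a median of 41.6 kb, within 1 kb for 282 of them (9.74%). Whether such close neighbours are 1 site called with other edges was not tested, and a region without a peak in a list may still be bound.

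Of the 12 most persistent U2OS-only sites, 9 lay inside protein-coding genes, away from their ends, and 3 lay outside genes, at 17.5, 112 and 491 kb from the nearest. The first was in KLHDC4, which encodes a Kelch domain protein, at chr16:87725486-87726273 (hg38, as all coordinates here). It had a peak in all 6 U2OS lists, at percentile 95.4, 95.8, 46.3, 64.3, 70.5 and 85.0 from 0 to 20 h, and in no U2OS-CHRONO list. The 0 h and 4 h peaks stood highest, at rank 156 of 3397 and 225 of 5287, and the 8 h peak lowest. A pair of further U2OS-only regions lay beside it, at chr16:87724742-87725455 with peaks at 16 and 20 h and at chr16:87723178-87723632 with peaks at 0, 4, 12 and 20 h. The nearest U2OS-CHRONO peak to this trio was 51.6 kb from the first of them. The other site with a peak in all 6 U2OS lists, chr14:84465461-84466319, lay 491 kb from the nearest protein-coding gene of the table, LOC124903401, and 243 kb from the nearest U2OS-CHRONO peak. Its percentiles were 82.8, 86.4, 27.6, 51.4, 46.4 and 89.3 from 0 to 20 h, again lowest at 8 h.

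The 5 sites with a peak at 5 U2OS times all lacked 8 h. LATS2, a kinase of the Hippo pathway, held the highest-scoring peak of the whole set, at chr13:20997609-20998141. Its percentiles were 94.3, 96.8, 73.2, 84.3 and 86.7 at 0, 4, 12, 16 and 20 h, with rank 170 at 4 h. A second U2OS-only region in LATS2, at chr13:20993779-20994154, had peaks at 4 and 20 h. ARSG, a lysosomal sulfatase, had percentiles of 88.4, 89.5, 87.5, 87.0 and 95.5 at chr17:68368276-68369322, the most even of the 5. JAZF1, a zinc finger protein, had percentiles of 54.5, 86.9, 78.5, 67.4 and 83.2 at chr7:27867957-27868807. DPY19L1, a mannosyltransferase, had percentiles of 84.7, 87.4, 25.9, 81.2 and 92.1 at chr7:34991833-34992498. JAZF1 was lowest at 0 h and DPY19L1 at 12 h. WDR70 was the weakest, with percentiles of 57.8, 78.4, 3.84, 78.8 and 58.6 at chr5:37724211-37724724, and it had a U2OS-CHRONO peak at 0.924 kb. Those of JAZF1 and LATS2 were 190 kb and 35.7 kb from the nearest U2OS-CHRONO peak.

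Of the sites with a peak at 4 U2OS times, the 5 with the highest mean percentile mostly had 0, 4, 16 and 20 h. FHOD1, a formin of the actin cytoskeleton, had percentiles of 73.1, 83.1, 90.1 and 82.5 at those times, at chr16:67240425-67240833. PRKCA, protein kinase C alpha, had 88.5, 84.1, 57.3 and 70.1 at chr17:66747529-66748056, and ELL2, an elongation factor of RNA polymerase II, had 54.0, 90.2, 73.1 and 75.9 at chr5:95901647-95902107. Their order over time thus differed, with FHOD1 highest at 16 h, PRKCA at 0 h and ELL2 at 4 h. The site at chr12:127270187-127270638, 112 kb from LOC107984449, had 70.8, 73.5, 83.5 and 94.1. The last of the 5 lay 17.5 kb from PGF, placental growth factor, at chr14:74973258-74973987, with 70.7, 79.1, 64.0 and 85.6 at 0, 4, 12 and 20 h. None of these 12 sites overlapped a Myc-library peak or lay within 1 kb of a gene end. Over all 508 U2OS-only regions those shares were 2.76% and 14.0%, so few or none among 12 is near that level.

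**Figure D2:**
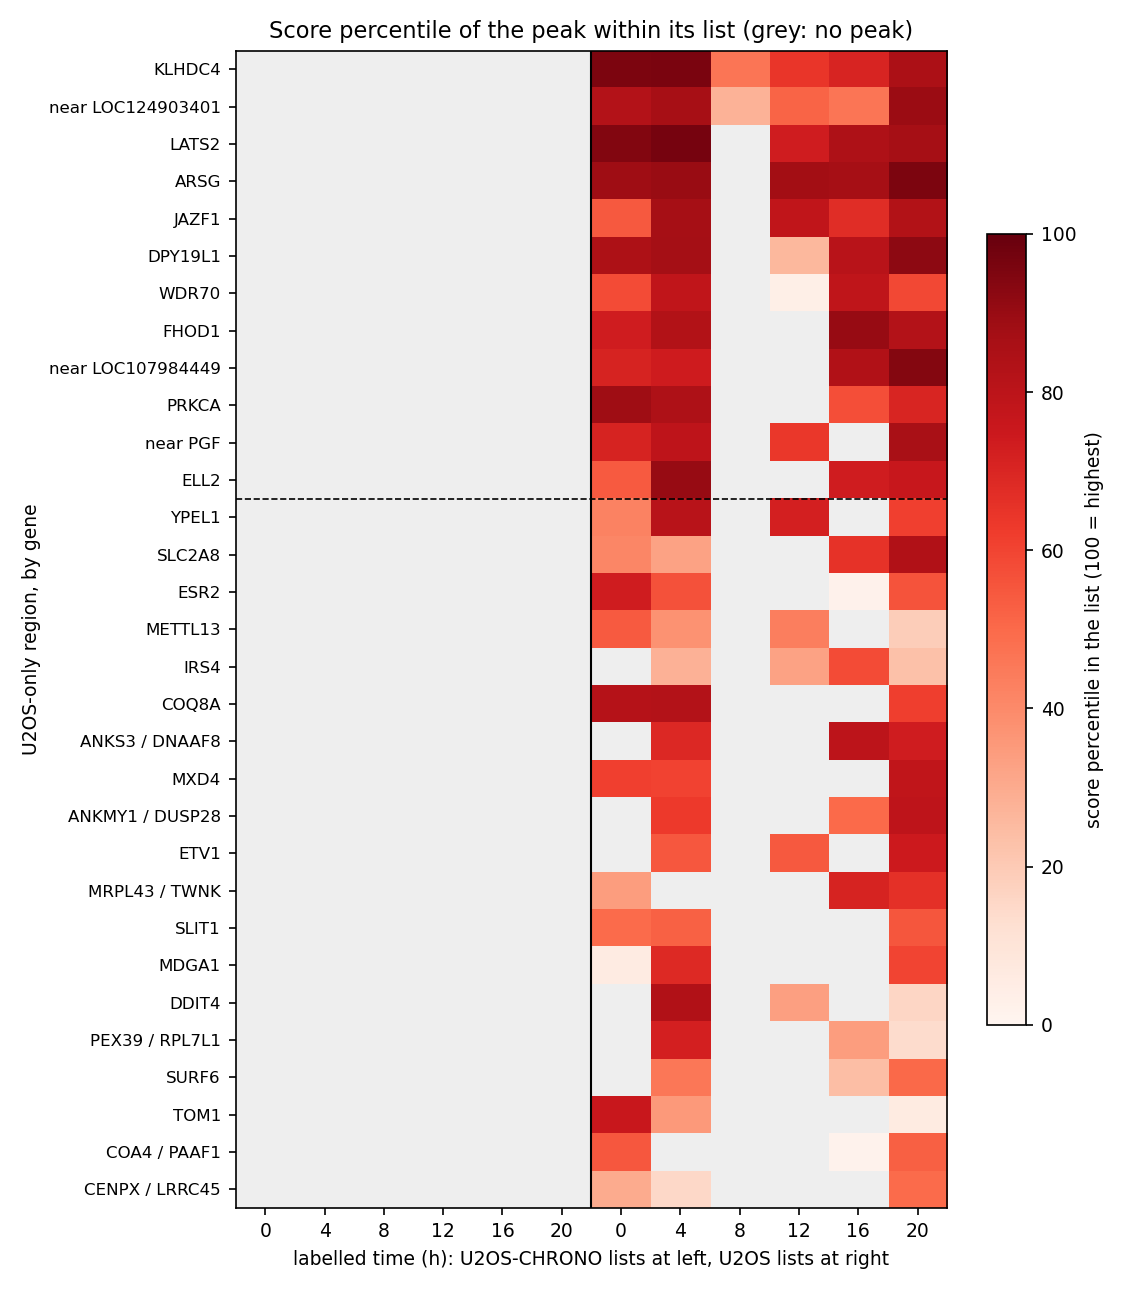
Score percentile within its list (colour, 100 = highest) of the BMAL1 peak in each named U2OS-only region (rows, by gene) at each labelled time in h (columns, U2OS-CHRONO lists at left and U2OS lists at right), with grey for no peak. Above the dashed line are the 12 most persistent regions and below it the regions at the ends of the 25 named genes. The U2OS-CHRONO columns are empty by the rule, and the U2OS column of 8 h is filled in 2 rows.

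At gene ends, defined as within 1 kb of either end of a protein-coding gene, the U2OS-only regions touched 91 genes, 0.454% of the 20037 genes of the table. Recurrent regions shared by both lines touched 1054 genes, 5.26%. Of the 91, 5 genes had the region at 4 U2OS times, 22 at 3 and 64 at 2. Strand was known for 81, and the region lay at the start of 68, at the end of 11 and at both for 2. For the others the strand was not used here.

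The 5 genes at 4 times had varied known roles, and in the 4 with a strand in the table the region lay at the start. For YPEL1 the strand was not used here. SLC2A8, the glucose transporter GLUT8, had percentiles of 41.0, 32.7, 65.4 and 83.5 at 0, 4, 16 and 20 h. ESR2, estrogen receptor beta, had 73.1, 56.3, 2.08 and 55.9 at the same times. The SLC2A8 peak stood highest at 20 h and the ESR2 peak at 0 h, with the ESR2 peak of 16 h close to the lowest score of its list. METTL13, a methyltransferase of elongation factor eEF1A, had 54.0, 37.5, 43.7 and 18.9 at 0, 4, 12 and 20 h. IRS4, an insulin receptor substrate, had 27.9, 32.6, 58.0 and 22.7 at 4, 12, 16 and 20 h. Its region was the most isolated of the 5, at 749 kb from the nearest U2OS-CHRONO peak. YPEL1, of the yippee-like family, had 42.4, 81.1, 72.0 and 61.1 at 0, 4, 12 and 20 h. YPEL1 was the 1 gene of the 25 named whose region overlapped a Myc-library peak.

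Of the genes at 3 times, the 20 with the highest mean percentile are named. MXD4, a MAX partner that opposes MYC at E-boxes, had percentiles of 61.1, 60.4 and 78.5 at 0, 4 and 20 h. ETV1, an ETS transcription factor, had 54.9, 54.3 and 74.4 at 4, 12 and 20 h. Both were highest at 20 h. DDIT4, also called REDD1, a stress-induced inhibitor of mTORC1, had 83.6, 33.2 and 16.0 at 4, 12 and 20 h, and a U2OS-CHRONO peak lay 402 bp away. SURF6, a nucleolar protein of ribosome biogenesis, had 45.9, 24.0 and 50.1 at 4, 16 and 20 h, with the region at its 3' end.

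COQ8A, of coenzyme Q synthesis, had percentiles of 81.7, 82.5 and 61.4 at 0, 4 and 20 h. A region between MRPL43, a protein of the mitochondrial ribosome, and TWNK, the helicase of mitochondrial DNA, had 34.2, 70.8 and 66.4 at 0, 16 and 20 h. A region shared by COA4, an assembly factor of cytochrome c oxidase, and PAAF1, a regulator of proteasome assembly, had 54.8, 1.68 and 52.5 at the same times. COQ8A was thus highest at 0 and 4 h, and the COA4 and PAAF1 region fell near the lowest score of the 16 h list.

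Further regions also served pairs of neighbouring genes. ANKS3 and DNAAF8, of cilia and of dynein assembly, shared a region with percentiles of 68.9, 79.6 and 73.1 at 4, 16 and 20 h. ANKMY1 and DUSP28, a phosphatase, shared one with 63.2, 49.8 and 79.3 at those times, 448 bp from a U2OS-CHRONO peak. PEX39 and RPL7L1, of ribosome biogenesis, shared one with 71.9, 34.1 and 14.0. CENPX, of the centromere, and LRRC45, of the centrosome linker, shared one with 29.7, 14.9 and 49.5 at 0, 4 and 20 h. For such pairs a peak cannot be given to 1 gene. The remaining 3 genes had 1 region each at 0, 4 and 20 h. SLIT1, an axon guidance ligand, had 49.2, 52.1 and 55.3, MDGA1, a membrane-anchored adhesion protein, had 5.76, 68.4 and 59.9, and TOM1, of endosomal sorting, had 75.7, 35.4 and 6.10. The first 2 had the region at the 3' end and TOM1 at the start.

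Of 11 lists of genes, 9 had no member with a U2OS-only region at a gene end. At the 0.454% of all genes, lists of this size would mostly hold none, so a count of 0 says nothing about a list. Among 20 core clock genes the count was 0, and 13 had a recurrent shared region there, against 5.26% of all genes. In the gene or within 5 kb, where U2OS-only regions marked 1.61% of all genes, RORA and HLF of the core clock list did. A longer gene has more room for a region, and gene length was not taken into account. RORA spans chr15:60488284-61229302 and HLF chr17:55264960-55325187, and no test was made. RORA, a nuclear receptor that activates BMAL1, had a peak at percentile 61.5, 12.2 and 38.2 at 0, 4 and 20 h. HLF, an output activator, had 72.4 and 45.6 at 0 and 20 h. Among clock cofactors and kinases 0 of 22 had such a gene end, and 4 had a recurrent shared region there.

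Nuclear receptors outside the clock had ESR2 as 1 of 43 (2.33%), and RARB, a retinoic acid receptor, had a region nearby, at 19.0 and 63.2 at 0 and 4 h. Genes of insulin signalling and glucose uptake gave 3 of 29 (10.3%), which were IRS4, SLC2A8 and SLC2A1, the glucose transporter GLUT1. The SLC2A1 peaks were among the weakest, at percentile 0.339 at 0 h and 14.9 at 4 h. IRS4 and SLC2A8 were known from these data when that list was drawn up, so its count is no independent evidence. Clock output genes (18), glucocorticoid-induced genes (22), MYC targets and ribosome biogenesis genes (30), lysosome and autophagy genes (25), cell cycle genes (25), osteoblast genes (15) and markers of other cell types (15) had none. With a recurrent shared region at a gene end, as 5.26% of all genes had, those 7 lists had 5, 5, 11, 8, 1, 0 and 1 members. The lists are partial, so a list with none does not mean that no gene of that kind had a region. SURF6 and RPL7L1, named above for ribosome biogenesis, had a U2OS-only region at a gene end and were not on that list. ARSG, the lysosomal sulfatase with a region inside the gene, was not on the lysosome list.

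U2OS-only peaks lay at gene ends less often than peaks of shared regions in each of the 6 U2OS lists, but the test did not pass after adjustment. Of all merged regions 19.5% lay at a gene end, against which 71 of the 508 U2OS-only regions did (14.0%, Wilson 95% interval 11.2 to 17.3%). The share was 903 of 3387 (26.7%, 25.2 to 28.2%) among shared recurrent regions and 764 of 2897 (26.4%, 24.8 to 28.0%) among U2OS-CHRONO-only regions. The intervals cover counting error only. List by list, 16.2, 13.0, 0, 20.0, 14.0 and 12.0% of the U2OS-only peaks from 0 to 20 h lay at a gene end, against 27.6, 26.4, 37.1, 30.6, 31.2 and 25.6% of the peaks of shared regions. Every U2OS-only share was below the lowest shared one, and the 0 at 8 h rests on 4 peaks. The means were 12.5% ± 6.77 in U2OS-only regions and 29.7% ± 4.23 in shared regions, a difference of -17.2 ± 10 percentage points (SD, n = 6 times). By an exact permutation of the signs of the 6 paired differences, two-sided, p was 0.031, the lowest value this design can reach. Adjusted over the 4 tests run by the Benjamini-Hochberg method it was 0.0625.

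Set against shared regions near the edge of the rule, the difference was smaller. With the 365 regions that had exactly 1 U2OS-CHRONO time, of which 66 lay at a gene end (18.1%, 14.5 to 22.4%), it was -2.75 ± 4.66 points, lower at 4 of 6 times (exact permutation p = 0.25, adjusted p = 0.25). That comparator was chosen after seeing the data. Recurrence within the U2OS-only regions gave no order beyond counting error, with 51 of 373 (13.7%) at 2 times, 15 of 85 (17.6%) at 3 times and 5 of 50 (10%) at 4 or more. Against U2OS-CHRONO-only peaks, whose mean share was 24.8% ± 5.10 at the same labelled times, the difference was -12.2 ± 7.77 points, lower at 5 of 6 times (exact permutation p = 0.0625, adjusted p = 0.0625). At 12 h the U2OS-only share was higher, at 20.0% against 18.4%. That difference was -6.92 points at equal list sizes (exact permutation, adjusted p = 0.125) and -3.76 points among peaks with a score of 100 or more (exact permutation, adjusted p = 0.47).

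Elsewhere 208 U2OS-only regions (40.9%) lay in a gene away from its ends, against 38.6% of all merged regions. Outside both genes and the 1 kb around their ends lay 229 (45.1%, 40.8 to 49.4%), against 42% of all merged regions, a share inside that interval. It was 37.6% (36.0 to 39.3%) among shared recurrent regions and 37.4% (35.6 to 39.2%) among U2OS-CHRONO-only regions. The 229 had a median distance of 48.9 kb to the nearest protein-coding gene, and 68 lay over 100 kb away. Whether the others lay in exons, introns or UTRs was not analysed here.

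Few U2OS-only regions coincided with a peak of the Myc library. The count was 14 of 508 (2.76%, 1.65 to 4.57%), against 6.32% of all merged regions, 744 of 3387 (22%) shared recurrent regions and 193 of 2897 (6.66%) U2OS-CHRONO-only regions. List by list, 3.07, 2.12, 0, 7.69, 0.667 and 3.05% of the U2OS-only peaks overlapped a Myc peak from 0 to 20 h, against 25.2, 22.4, 59.6, 34.2, 27.2 and 21.4% of the peaks of shared regions. The groups did not overlap, with the highest U2OS-only share below the lowest shared one. The means were 2.77% ± 2.72 and 31.7% ± 14.4, a difference of -28.9 ± 15.4 points (SD, n = 6 times), lower at 6 of 6 times (exact permutation p = 0.031, adjusted p = 0.0625). With the 365 shared regions of 1 U2OS-CHRONO time, of which 21 overlapped a Myc peak (5.75%, 3.79 to 8.63%), it was -2.95 ± 2.09 points, lower at 5 of 6 times (exact permutation p = 0.0625, adjusted p = 0.0833). Against U2OS-CHRONO-only peaks, with a mean of 7.83% ± 1.66, it was -5.06 ± 3.41 points, lower at 5 of 6 times (exact permutation p = 0.0625, adjusted p = 0.0625). That difference was -4.63 points at equal list sizes (exact permutation, adjusted p = 0.0833). Among BMAL1 peaks with a score of 100 or more it was -9.09 points (exact permutation, adjusted p = 0.0625). The Myc library came from U2OS-CHRONO, the line in which these regions were by rule not called, so line and antibody cannot be told apart in this comparison. The BMAL1 score percentile moved with the classes too, at a median of 36.9 to 50.3 in U2OS-only and 63.2 to 71.4 in shared regions, and its part in these position and Myc results was not tested. With regions of 3 or more times in place of 2, all 4 differences kept their direction and passed (exact permutation, adjusted p = 0.031 each). Such a pass needs all 6 times to be lower, and the U2OS-only share at 8 h rested on at most 4 peaks.

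**Figure D3:**
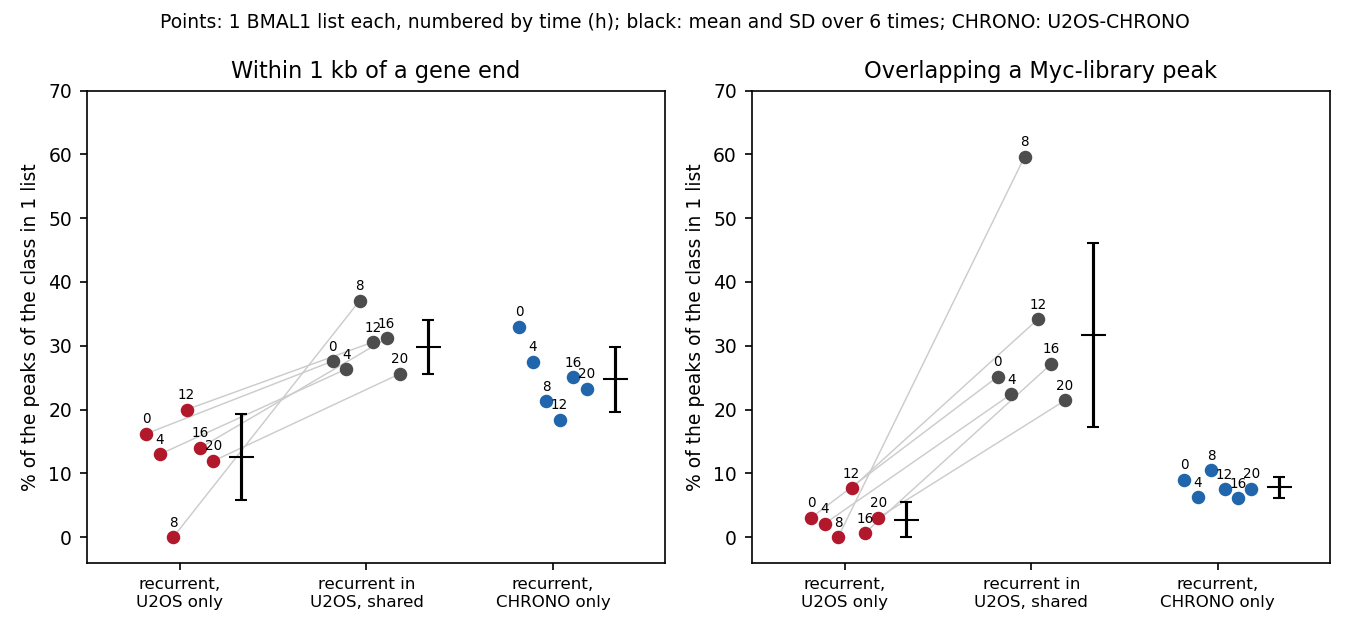
Share (y, %) of the BMAL1 peaks of a class in 1 list that lay within 1 kb of a gene end (left) or overlapped a Myc-library peak (right), for U2OS-only, shared and U2OS-CHRONO-only recurrent regions (x). Points are lists, numbered by time in h, grey lines join the same U2OS list, and black bars give mean and SD over 6 times. In both plots every U2OS-only point lies below every shared point, with gene-end means of 12.5% and 29.7% and Myc means of 2.77% and 31.7%.

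The Myc peaks matched by the 14 regions stood at a median percentile of 51.3 of that library, from 3.20 to 79.6. Their Myc scores ran from 50.6 to 77.7, and their ranks ran from 504 to 2401 of 2487. None reached 100, but 231 of all 2487 Myc peaks did, so none among 14 is near that level. Of the 14, 6 lay at gene ends, against 14.0% of all 508 U2OS-only regions and 19.5% of all merged regions. No test of this was made. These 6 are named because of that overlap, after the values were seen. The genes were YPEL1, UBP1, the pair TEAD2, a Hippo pathway transcription factor, and DKKL1, the pair DPH3, of diphthamide synthesis, and OXNAD1, the pair SELENOI, of phospholipid synthesis, and ADGRF3, and the pair TRMT1, a tRNA methyltransferase, and NACC1. Their Myc scores were 59.3 for YPEL1, 62.0 for UBP1, 60.6 for TEAD2 and DKKL1, 55.3 for DPH3 and OXNAD1, 56.0 for SELENOI and ADGRF3 and 51.5 for TRMT1 and NACC1. The region in MALAT1, a long noncoding RNA, had BMAL1 peaks at 4, 12 and 20 h and a Myc score of 51.6, and lay 1001 bp from a U2OS-CHRONO BMAL1 peak.

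The E-box CACGTG was in 24.7% of the promoters under U2OS-only regions, 41.2% of those under shared regions and 7.26% of all promoters. The 508 regions overlapped 77 of 35116 RefSeq promoter windows, of 72 genes, and 57 of the regions were involved. CACGTG, which reads the same on both strands, was in 19 of the 77 windows (Wilson 95% interval 16.4 to 35.4%), against 459 of 1114 windows (38.3 to 44.1%) under shared recurrent regions and 169 of 814 (20.8%, 18.1 to 23.7%) under U2OS-CHRONO-only regions. The interval of the U2OS-only share lies below that of the shared one and holds that of the U2OS-CHRONO-only one. CACGTT, a variant searched on both strands, was in 11.7% of the U2OS-only windows, 9.87% of the shared, 9.95% of the U2OS-CHRONO-only and 5.34% of all. CANNTG, which includes CACGTG, was in 62.3, 71.7, 65.5 and 68.7% of the windows in the same order of classes. TGACTCA, an AP-1 site searched on both strands, was in 1 of the 77 windows (1.30%), against 6.55% under shared regions, 3.44% under U2OS-CHRONO-only regions and 4.95% of all. The median GC content was 66.7% in U2OS-only windows, 65.7% in shared, 65.0% in U2OS-CHRONO-only and 58.7% in all windows. Windows of 1 gene or of facing genes can share bases, so they are not independent, and no test was made. Besides IRS4 and MXD4 above, ANKMY1, ETV1 and TOM1 of the named genes had a CACGTG window.

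**Figure D4:**
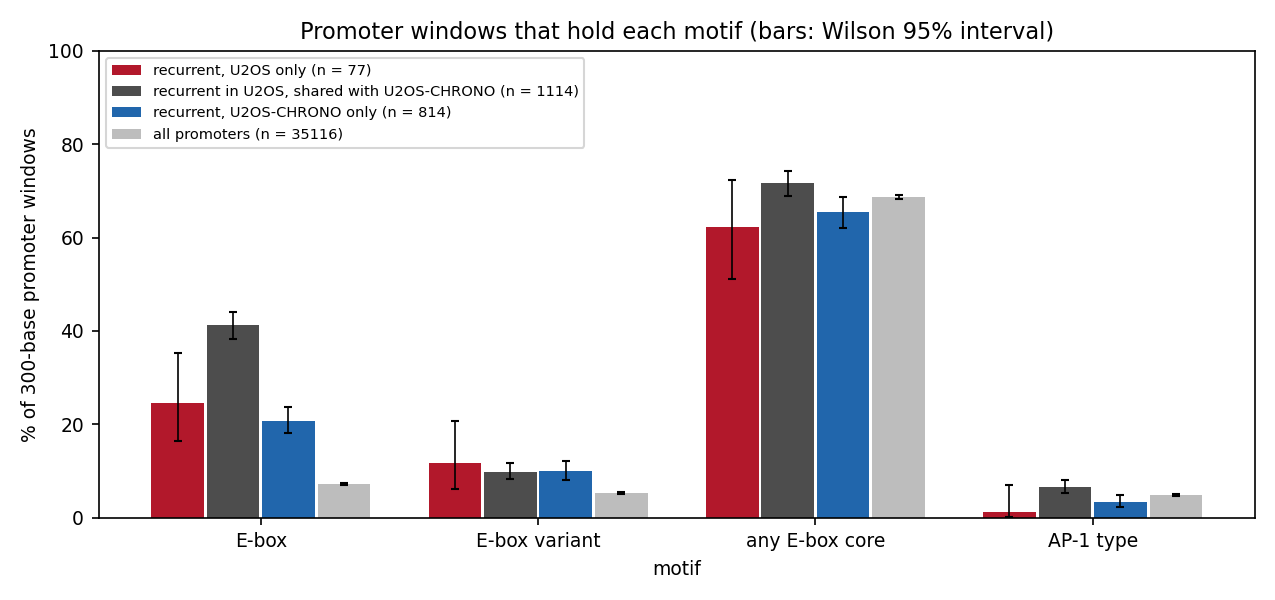
Share (y, %) of 300-base promoter windows that hold the E-box CACGTG, its variant CACGTT, any core CANNTG or the AP-1 site TGACTCA (x), for windows under U2OS-only, shared and U2OS-CHRONO-only recurrent regions and for all windows, with Wilson 95% intervals. For CACGTG the U2OS-only bar, 24.7%, is below the shared bar, 41.2%, and above that of all windows, 7.26%.

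The U2OS-only regions were spread over all chromosomes examined. Of 3894 recurrent U2OS regions on chromosomes 1 to 22 and X, 508 (13.0%, 12.0 to 14.1%) were U2OS-only. The share was lowest on chromosome 18, at 6.76% (5 of 74), and highest on chromosome 21, at 23.1% (9 of 39, 12.7 to 38.3%). Chromosome 10 had 43 of 235 (18.3%, 13.9 to 23.7%), chromosome 14 had 18.2% and chromosome 11 had 17.2%. Chromosome 10 was the only one of these chromosomes whose interval did not hold the overall 13.0%, with a lower bound of 13.9%, and no test was made.

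**Figure D5:**
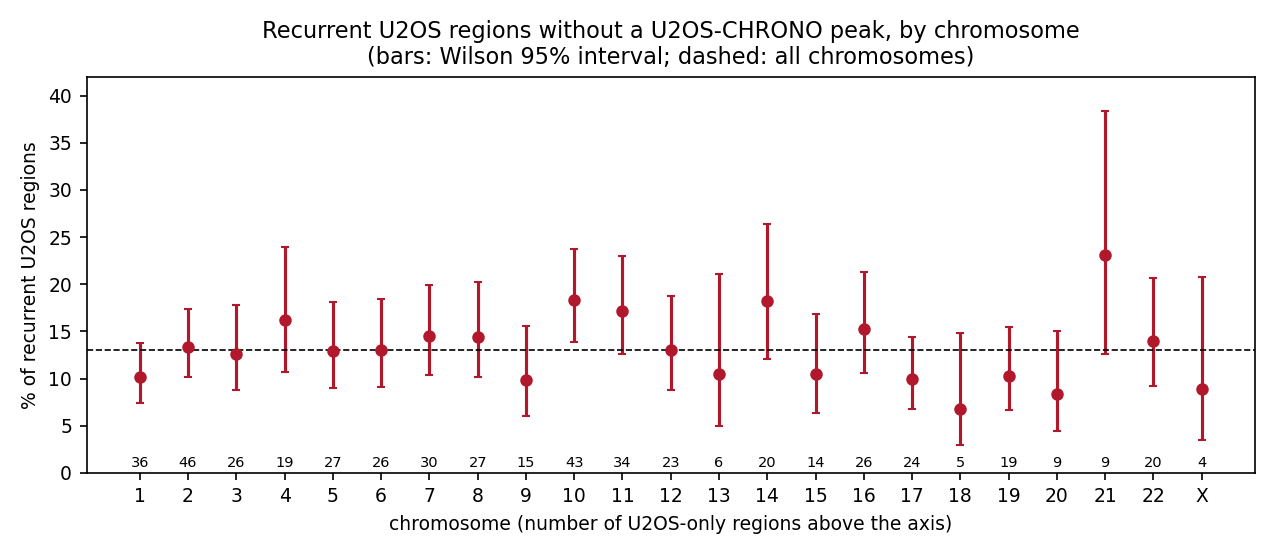
Share (y, %) of recurrent U2OS regions with no U2OS-CHRONO peak on each chromosome (x), with Wilson 95% intervals, the number of U2OS-only regions above the axis and the share over all chromosomes, 13.0%, dashed. The points run between 6.76% on chromosome 18 and 23.1% on chromosome 21.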

How the data were processed

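Peak lists of 13 chromatin immunoprecipitation libraries were used: 6 of BMAL1 in U2OS-CHRONO, 6 of BMAL1 in U2OS and 1 of Myc in U2OS-CHRONO, while 3 input libraries were not analysed here. Per the submitters' processing notes, the build was hg38 and the tools included HOMER 4.10.3, MACS 1.4.2 and bedtools, with no role given. Read depth is unknown, and the sources used here do not name the aligner or the calling control. The score of each peak is the authors' value, as deposited, its definition is not stated, and the lowest was 50. It served to rank and filter peaks inside a list. Each library had its own list.

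Peaks of the 12 BMAL1 lists that shared 1 bp or more were merged, and bedtools 2.31.1 gave as many regions (20968). Shares of a class were taken per list over its peaks. The paired differences of the 6 times were tested by exact permutation of their signs, two-sided, and p-values were adjusted over 4 tests (Benjamini-Hochberg). Pairs were the same list (U2OS-only against shared regions) or the same labelled time (against U2OS-CHRONO-only regions). The tests measure the spread over times, not between replicates. Genes (20037, protein-coding) and promoters came from RefSeq tables of GRCh38.p14, the assembly of hg38. Of 257 listed symbols 256 were found. No microRNA hairpin of 1562 lay in a U2OS-only region.

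Named regions were the 12 with the most U2OS times, and named genes the 25 with the most times at a gene end, ties broken by mean score percentile, together with list members in or within 5 kb, of which 1 is not reported here. All promoter windows of the table were searched for E-box and AP-1 motifs, and the sequences of up to 8 promoters of named genes were extracted for printing. The regions, lists, tests and alternatives were chosen with earlier results of these data known. Alternatives were a score of at least 100 for BMAL1 or for Myc peaks, equal list sizes, chromosomes 1 to 22 and X, centres within 500 bp or 50% overlap, 3 or more times, a 5 kb gene-end window, each time left out and no pairing. A comparator with 1 U2OS-CHRONO time and a 1 kb exclusion around peaks of the other line were added after seeing the data. Scripts were tested on simulated data. Python 3.11.15, NumPy 2.4.6, pandas 2.3.3, SciPy 1.17.1 and matplotlib 3.10.9 were used.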

Additional observations from a re-analysis of the deposited data

Results flagged for a closer look

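Among 18 sets of 6 lists examined for 1 list far from the others, 4 held one, where chance gives about 1 in 20. The U2OS-only peaks had a median score percentile of 50.3 in the U2OS list of 20 h, against 41.7 in the next list, a gap of 0.646 of the range. Their median width was 677.5 bp at 8 h, against 352 bp in the next list, a gap of 0.686 of the range, but the 8 h value rests on 4 peaks. In the same 8 h list the peaks of shared regions had a median width of 788 bp, against 431 bp in the next list (gap 0.662 of the range), and 59.6% of them overlapped a Myc peak, against 34.2% in the next list (gap 0.666). Without 8 h the difference in Myc overlap between U2OS-only and shared peaks was -22.8 percentage points, and that in gene-end share was -13.1 points.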

How the results depend on the processing

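All 4 differences in share stayed negative under every alternative tried. They passed in some. Each paired pass needed all 6 times to be lower, and the U2OS-only share at 8 h rested on at most 4 peaks. With 3 or more times they were -19.1 and -13.6 points for gene ends (against shared and against U2OS-CHRONO-only peaks) and -32.0 and -6.37 for Myc overlap, each with an adjusted p of 0.031 by the exact permutation test. With no replicate block, that is, with times not paired, the same values of -17.2, -12.2, -28.9 and -5.06 had adjusted exact permutation p of 0.0043, 0.0058, 0.0043 and 0.011. This pairs nothing. Like the paired test it takes times as independent, though the same regions recur from time to time. Without U2OS-only or U2OS-CHRONO-only regions that have a peak of the other line within 1 kb, -17.7, -12.8 and -28.7 passed (adjusted exact permutation p = 0.042 each). With Myc peaks of score 100 or more the Myc differences were -11.1 and -0.358, but no U2OS-only region overlapped such a peak, so the sign was fixed at every time and the p (0.042 adjusted, exact permutation) carries no information. Other alternatives left the tests short of 0.05.

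The number of U2OS-only regions depended on the rule. It was 508 as reported, 135 with 3 or more times, 151 with a score of at least 100, 858 at equal list sizes, where the longer U2OS-CHRONO list of each time was shortened, and 463 with none of the other line's peaks within 1 kb. Leaving out 1 time gave 287 (without 20 h) to 553 (without 16 h), with 318 without 4 h. Unknown read depth limits every count, since a peak missing from a list can be a peak below the calling threshold. With 5 times the smallest possible p is 0.0625, so the tests that leave out a time could not pass.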

Other observations

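Some U2OS-only regions lay near each other, but the same count was not made for other classes of region. Of neighbouring U2OS-only regions, 3 pairs lay within 1 kb of each other, 11 within 10 kb, 25 within 50 kb and 36 within 100 kb. The KLHDC4 trio and the LATS2 pair are among them. So is a pair in ATXN1, the gene of spinocerebellar ataxia type 1, at chr6:16681170-16681528 and chr6:16681532-16681897, both with peaks at 4 and 20 h. The ATXN1 regions almost touch, and a pair of the KLHDC4 trio lay 30 bp apart. Whether such neighbours are 1 site split by the merging rule was not tested. Farther apart, GLI3, a transcription factor of Hedgehog signalling, held a region at chr7:42097844-42098366 with peaks at 16 and 20 h and another at chr7:42262920-42263185 with peaks at 0 and 4 h. These genes were picked after their values were seen.

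In windows of 5 Mb with at least 5 U2OS-only regions, the share of recurrent U2OS regions that were U2OS-only reached 5 of 9 on chromosome 3 (125 to 130 Mb), 7 of 14 on chromosome 10 (110 to 115 Mb), 5 of 11 on chromosome 7 (40 to 45 Mb) and 8 of 20 on chromosome 22 (20 to 25 Mb), against 13.0% over all chromosomes. U2OS-CHRONO was not without peaks in them, with 49, 27, 35 and 36 regions that had one. The window of KLHDC4, on chromosome 16 (85 to 90 Mb), held 10 of 37. Among the windows so kept the lowest share was 5 of 48, on chromosome 19 (45 to 50 Mb). Windows were kept by their count of U2OS-only regions and the highest shares are given. An excess over 13.0% was thus partly built in, and no test was made. In all, 10 U2OS-only regions lay more than 500 kb from any U2OS-CHRONO peak, among them those of IRS4, TMEM164 and GLI3. The farthest, at chr4:152681419-152681650, was 1.42 kb from TMEM154 and had peaks at 0 and 4 h.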
